A study of Danio rerio with 16 samples.

Results

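Livers of fed wild-type zebrafish larvae at 7 days post fertilization (dpf) were compared between 2 libraries titled as ventral and 2 libraries titled only as fed. These are 4 of 16 RNA-seq libraries in 8 groups, the others being livers labelled normal at 4 and 5 dpf, fasted livers at 6 dpf (WT, WT with EtOH, and a transgenic line with GCaMP6s driven in liver by fabp10a) and fasted livers at 7 dpf. All genes entered the comparison, with no selection, and 17799 of 32058 features had enough counts to be tested. Each library was made from the dissected livers of 30 larvae. The ventral and the fed libraries carry the same age, genotype (WT) and treatment (Fed) in the labels, and the word in the title is the only label that separates them. The labels do not say what ventral denotes, nor whether the pools came from separate clutches, so the p-values below measure only the spread between libraries. In libraries of whole tissue, fewer cells of a type and less RNA per cell cannot be told apart.

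The larval liver consists mostly of hepatocytes, which take up nutrients, store and burn fat, and secrete plasma proteins. Biliary, endothelial, stellate and blood cells make up the remainder, and the pancreas and intestine lie beside the organ and can be dissected with it. Hepatocyte identity rests on transcription factors such as those of the CEBP, HNF and FOXA families. Liver growth and metabolism follow signals of feeding, growth hormone, insulin and the circadian clock, each of which has target genes whose transcripts can be followed in such libraries.

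The 4 libraries held 18995692 to 23216544 counts, so that 3 counts corresponded to 0.122 to 0.158 CPM (read counts relative to the TMM-scaled total of the library). Across genes, which are no independent replicates, log2(CPM + 0.5) of the ventral libraries correlated at r = 0.977. The fed libraries correlated at r = 0.982, and pairs of a ventral and a fed library at 0.969 to 0.980. The median absolute log2 difference per gene was 0.22 between the ventral replicates, 0.23 between the fed replicates and 0.20 between the means of the groups. The means average 2 libraries each, so the last value is not on the same footing as the first 2. Of the 17799 genes tested, 858 were over 2-fold apart between the ventral replicates. Between the fed replicates 650 were, and their split by direction was not counted. Of the 858 genes, 720 were higher in ventral replicate 2 and 138 in ventral replicate 1. Transcripts of skin and skeletal muscle were among the 720, as described with the cell type markers below. The reporter EGFP had 0 counts in all 4 libraries.

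In the ventral libraries 89 genes were higher and 118 lower than in the fed libraries, at an adjusted p under 0.1 and at least 2-fold. These 207 genes were 1.16% of those tested, 0.5% in the higher and 0.663% in the lower direction. P-values came from edgeR's quasi-likelihood test with Benjamini-Hochberg adjustment over all genes. At the adjusted p alone 445 genes passed (2.5%), and 2245 had an unadjusted p under 0.05. In level, the medians of the called genes lay on either side of that of all genes tested. The median level over the 4 libraries was 7.03 CPM among the genes that were higher and 3.41 CPM among those that were lower, against 5.14 CPM over all genes tested. Of the 207, 41 averaged under 1 CPM and 5 over 100 CPM. The shares of all genes tested at these levels were not counted. Changes of at least 4-fold were seen in 22 genes that were higher and 47 that were lower. In none of the 207 did the levels of the groups overlap, while 41.1% of all genes tested showed no overlap either, 20% with the ventral levels above and 21.1% with them below the fed levels. Among the called genes 14 of the 89 and 22 of the 118 carried only a clone or predicted name and are counted but not named.

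The number of calls depended on single libraries and on the scaling. Without fed replicate 2 only 85 genes were called, 30 higher and 55 lower. Without ventral replicate 1 the calls were 144 higher and 52 lower, and without ventral replicate 2 they were 52 higher and 107 lower. Scaling by library size alone gave 69 higher and 156 lower, which made 30.7% of the calls higher, against 43% with TMM. In all 4 fits that left out 1 of the libraries 41 of the 207 genes were called, 17 higher and 24 lower, and the genes given first below are mostly from these.

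**Figure D1:**
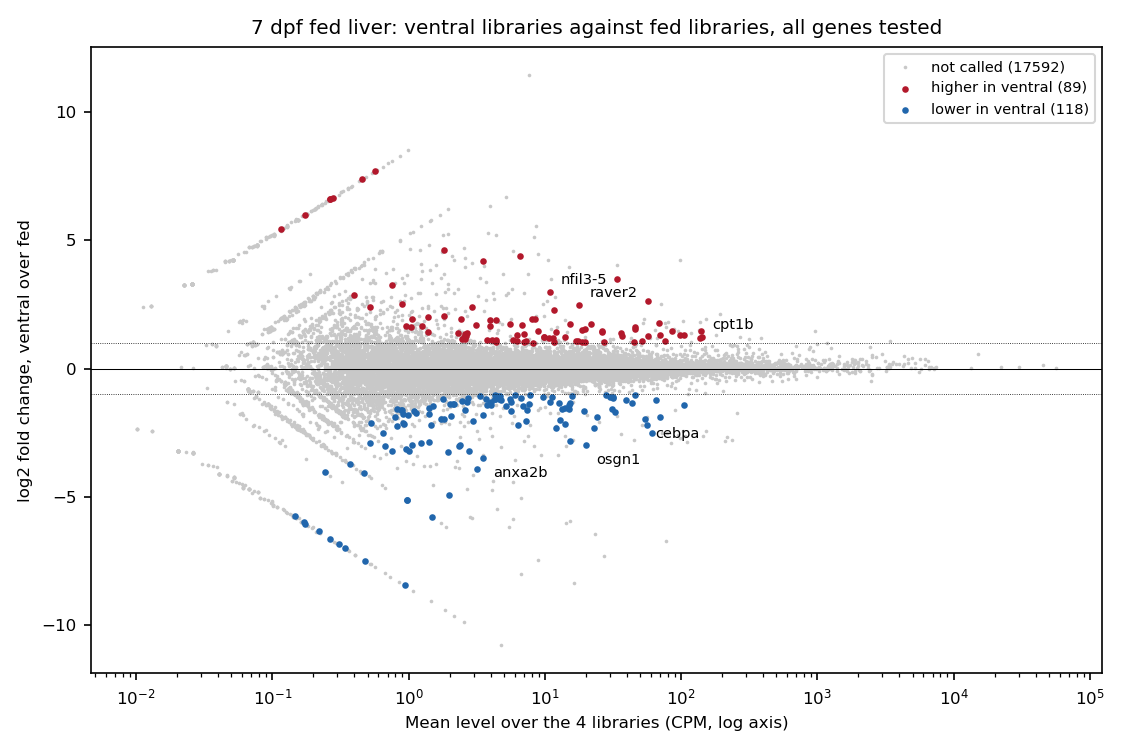
Mean level of each of 17799 genes over the 2 ventral and 2 fed libraries (horizontal, CPM on a log axis) against its log2 fold change, ventral over fed (vertical); red points are the 89 genes called higher, blue points the 118 called lower, and dotted lines mark 2-fold. The most abundant genes lie close to 0. The called genes lie mostly below 100 CPM, as does the median of all genes tested, 5.14 CPM.

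The 12 genes with the smallest p among those that were higher in the ventral libraries are given first. The level of cpt1b, which admits long-chain fatty acids to mitochondria for oxidation, was 200.04 and 196.9 CPM in the ventral libraries, against 90.1 and 79.2 CPM in the fed libraries. Here and below values are given in the order of replicates 1 and 2. Both ventral libraries lay far above both fed libraries, by a log2 fold change of 1.23 ± 0.14 (SE; adjusted p = 8.98e-05, edgeR). The nucleotide carrier of the inner mitochondrial membrane slc25a36a had 37.9 and 38.8 CPM in ventral against 12.3 and 15.2 CPM in fed libraries (log2 fold change 1.48 ± 0.15). Its ventral replicates were almost equal. The coactivator of mitochondrial gene programs ppargc1b had 57.0 and 46.2 CPM in ventral against 20.9 and 22.0 CPM in fed libraries (1.26 ± 0.14), again without overlap. The mitochondrial phosphatase pptc7a was also higher, with 74.4 and 64.2 CPM in ventral against 27.4 and 17.1 CPM in fed libraries (1.64 ± 0.20).

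The largest fold among these 12 genes was that of nfil3-5, a member of the NFIL3 family of bZIP repressors, with 20.4 and 18.4 CPM in ventral against 2.63 and 2.28 CPM in fed libraries. It was 7.91-fold higher in ventral (log2 fold change 2.98 ± 0.35, adjusted p = 0.00011, edgeR). The RNA-binding protein gene raver2 followed, at 29.5 and 31.1 CPM in ventral against 5.26 and 5.69 CPM in fed libraries. Its replicates were close in both groups, and its change of 5.52-fold (2.47 ± 0.24) had the smallest p of the genes that were higher (adjusted p = 3.04e-05). The gene of ferroportin, the exporter of cellular iron, slc40a1, stood at 104 and 95.02 CPM in ventral against 33.5 and 46.004 CPM in fed libraries (1.32 ± 0.15).

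Among the others of these 12, the level of plekhm1, an adaptor for fusion of late endosomes and autophagosomes with lysosomes, was 36.8 and 39.6 CPM in ventral against 15.3 and 13.3 CPM in fed libraries (log2 fold change 1.42 ± 0.16). The ceramidase gene acer2 had 23.9 and 31.7 CPM in ventral against 10.5 and 8.87 CPM in fed libraries (1.53 ± 0.19), and the LIM-domain gene fhl1b 21.5 and 24.96 CPM in ventral against 8.94 and 5.21 CPM in fed libraries (1.73 ± 0.21). None of these levels overlapped. Just past 2-fold were zfand5a (1.05 ± 0.13), a zinc finger protein that acts with the proteasome, and klhl24b (1.06 ± 0.14), a substrate adaptor of ubiquitin ligases. Without fed replicate 2 both came to under 2-fold, zfand5a at 0.87 and klhl24b at 0.85, and klhl24b also without ventral replicate 2 at 0.99. Outside the 12, and chosen after their values were seen, stand the muscle-wasting ubiquitin ligase fbxo32 and the autophagy kinase ulk1a. The level of fbxo32 was 5.91 and 7.42 CPM in ventral against 0.105 and 0.569 CPM in fed libraries, a log2 fold change of 4.20 ± 0.64 (adjusted p = 0.0031) that came to 3.54 without fed replicate 1 and 5.91 without fed replicate 2. With scores of pancreas, skin and blood markers in the model, added after seeing the data, it was 5.33. That of ulk1a was 20.4 and 19.1 CPM in ventral against 9.78 and 7.08 CPM in fed libraries (1.23 ± 0.21). Both were called with any 1 of the 4 libraries left out.

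Of the 12 genes with the smallest p among those that were lower in the ventral libraries, the first was osgn1, a gene named for growth inhibition under oxidative stress. It had 3.67 and 5.32 CPM in ventral against 31.4 and 39.5 CPM in fed libraries, 7.91-fold lower in ventral (log2 fold change -2.98 ± 0.24, adjusted p = 5.72e-06, edgeR). Next was cish, a SOCS-family inhibitor that growth hormone and other cytokines induce through STAT5, with 5.02 and 5.22 CPM in ventral against 22.9 and 18.7 CPM in fed libraries (-2.02 ± 0.19). The replicates of cish were nearly equal in the ventral group.

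The hepatocyte transcription factor cebpa stood at 19.6 and 25.2 CPM in ventral against 85.1 and 88.4 CPM in fed libraries, a change of 3.88-fold (log2 fold change -1.96 ± 0.18, adjusted p = 3.04e-05). The growth factor gene igf2b had 29.1 and 30.3 CPM in ventral against 93.1 and 126.5 CPM in fed libraries (-1.89 ± 0.19). For cyclin D1, which drives entry into the cell cycle, ccnd1 was at 13.2 and 17.9 CPM in ventral against 38.1 and 55.3 CPM in fed libraries (-1.59 ± 0.19). In each of the 3 genes the higher ventral library was still below the lower fed library by over 2-fold.

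The T-box factor tbx2b had 24.05 and 24.6 CPM in ventral against 59.7 and 64.9 CPM in fed libraries (log2 fold change -1.36 ± 0.16). The angiomotin gene amotl2a, a scaffold of the Hippo pathway, had 24.2 and 22.6 CPM in ventral against 50.8 and 59.5 CPM in fed libraries (-1.24 ± 0.16). The HLH inhibitor id2a was just past 2-fold lower (-1.02 ± 0.15), and without ventral replicate 1 or fed replicate 2 it was at -0.86 and -0.98. The glutathione peroxidase gpx1b, which reduces hydrogen peroxide, had 1.97 and 2.56 CPM in ventral against 12.1 and 8.87 CPM in fed libraries (-2.21 ± 0.26). The annexin anxa2b (-3.49 ± 0.42) and the actin-regulating eps8l3b (-3.02 ± 0.42) were under 1 CPM in both ventral libraries. They had 5.52 and 7.32 CPM and 4.84 and 3.46 CPM in the fed libraries. All of the 24 genes but zfand5a, klhl24b and id2a stayed past 2-fold with any 1 of the 4 libraries left out. The 24 were chosen by p in these same libraries, so this follows in part from the choice.

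**Figure D2:**
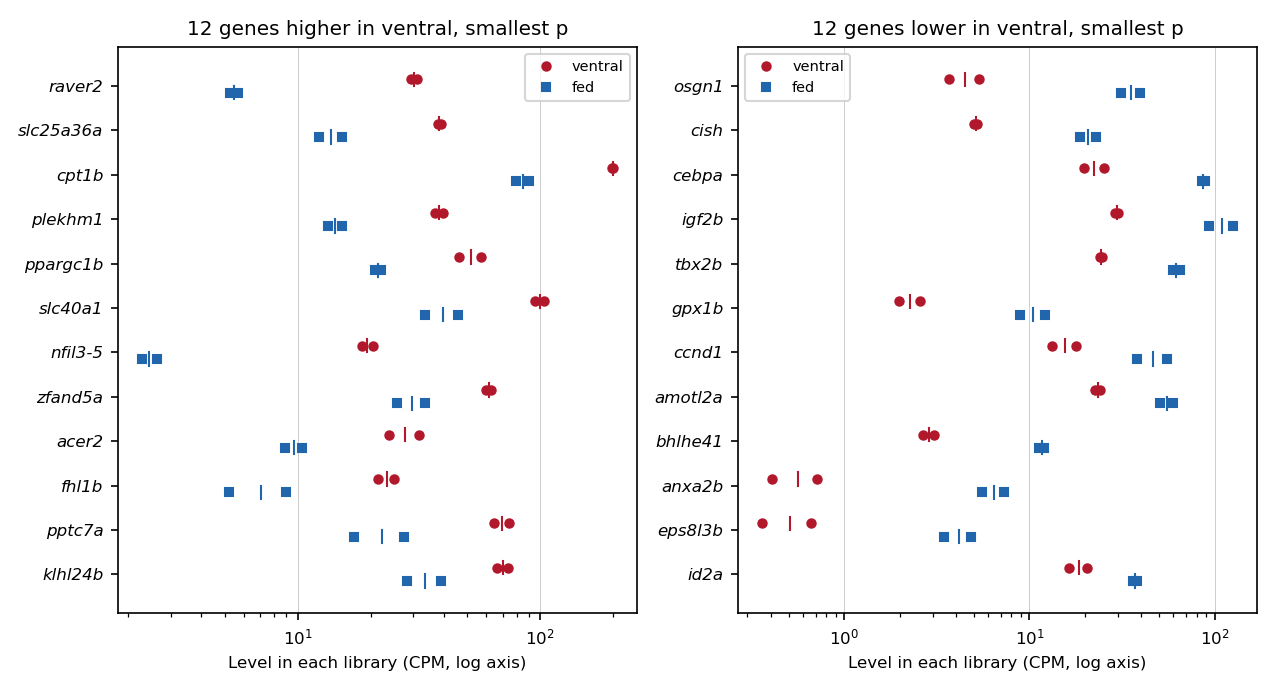
Levels (CPM, log axis) of the 12 genes higher (left) and 12 lower (right) in the ventral libraries with the smallest p; each red circle is a ventral library, each blue square a fed library, and short vertical lines are the means of the 2. No gene shows overlap, and the replicates of most genes lie within a small part of the distance between the groups. Both features follow from the choice by p, and 41.1% of all genes tested show no overlap either.

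The genes of 29 liver pathways and complexes and of 16 sets of cell type markers were followed as lists. The background is the 1.16% of all genes that were called. For counts at an unadjusted p under 0.05 it is 2245 of the 17799 genes tested, whose split by direction was not counted. For counts of DESeq2 calls it is 380 of the 17358 genes with an adjusted p there, 177 higher and 203 lower. Of the 207 called genes 42 stood in at least 1 list, and no list held more than 6 of them. The share of all genes tested that stand in a list was not counted, so the 42 are given as a count only. In 13 of the 29 pathway lists no member was called. Medians below are log2 fold changes over the tested members of a list, and over all genes tested the median was 0.01. Members of a list can vary together, so a count of members without overlap is no count of independent replicates.

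Of 40 tested clock genes 2 were higher and 2 lower in the ventral libraries, and the median was -0.002. Beside nfil3-5, rorcb was higher. This gene of the ROR family, whose members activate clock genes, had 111 and 103 CPM in ventral against 28.0 and 34.7 CPM in fed libraries (log2 fold change 1.77 ± 0.29, adjusted p = 0.0111, edgeR). The repressors bhlhe40 and bhlhe41 were both lower. For bhlhe40 the levels were 59.5 and 54.9 CPM in ventral against 158 and 145 CPM in fed libraries (-1.41 ± 0.24, adjusted p = 0.0118), and for bhlhe41 3.05 and 2.66 CPM in ventral against 11.3 and 12.04 CPM in fed libraries (-2.03 ± 0.25, adjusted p = 0.000298). All 4 kept their calls with any 1 library left out. With scores of pancreas, skin and blood markers in the model, added after seeing the data, rorcb came to 3.35 and nfil3-5 to 3.88, and bhlhe40 to -0.88 without a call. The labels give no time of day for the dissections.

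In the insulin, growth hormone and IGF list 1 of 37 members was higher and 3 were lower, with a median of 0.04. Beside cish and igf2b, socs1a was lower, with 0.717 and 0.307 CPM in ventral against 1.68 and 1.79 CPM in fed libraries (log2 fold change -1.73 ± 0.39, adjusted p = 0.0307). The call of socs1a, a cytokine signaling suppressor, was lost without ventral replicate 2 (-1.27, adjusted p = 0.254) and without fed replicate 2 (-1.68, adjusted p = 0.176), and its value was -2.48 without ventral replicate 1. The insulin receptor substrate irs1 was higher, at 9.49 and 9.41 CPM in ventral against 5.47 and 3.74 CPM in fed libraries (1.04 ± 0.28, adjusted p = 0.0722), and without fed replicate 2 it came to 0.79. Its call was also lost without either ventral replicate, at 1.04 and 1.05 with adjusted p of 0.226 and 0.21.

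Several uncalled members of this list had wide spread between the fed replicates, and they are given here after their values were seen. The kinase pdk2b, which restrains pyruvate oxidation, had 286 and 338 CPM in ventral against 107 and 36.5 CPM in fed libraries (log2 fold change 2.13 ± 0.88, adjusted p = 0.36). For irs2a the levels were 110 and 139 CPM in ventral against 54.5 and 16.8 CPM in fed libraries (1.81 ± 0.55, adjusted p = 0.21). The groups did not overlap in either gene, but the fed replicates were over 2-fold apart in both.

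Of 33 hepatocyte transcription factors 1 was higher and 2 were lower, with a median of -0.18. In addition to cebpa, foxa1 was lower, at 7.88 and 6.60 CPM in ventral against 13.99 and 16.8 CPM in fed libraries (log2 fold change -1.09 ± 0.17, adjusted p = 0.00215). It came to under 2-fold without ventral replicate 2 (-0.97) and without fed replicate 2 (-0.95). The Krüppel-like factor klf15, which promotes gluconeogenesis and amino acid breakdown in mammalian liver, was higher, at 193 and 192 CPM in ventral against 97.8 and 69.9 CPM in fed libraries (1.201 ± 0.19, adjusted p = 0.00389). Without fed replicate 2 its log2 fold change was 0.98. The levels of 16 members did not overlap and were lower in ventral, and 5 were higher without overlap. Of all genes tested 21.1% were lower and 20% higher without overlap.

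In the fatty acid oxidation list cpt1b was the only 1 of 41 members called, and the median was 0.08. Of 15 genes of lipid droplets and triglyceride storage only pnpla2, the lipase that starts triglyceride breakdown, was called. It had 119 and 134 CPM in ventral against 50.4 and 40.4 CPM in fed libraries (log2 fold change 1.48 ± 0.30, adjusted p = 0.0482). The call was lost when any 1 of the 4 libraries was left out, at log2 fold changes of 1.33 to 1.65 and adjusted p of 0.131 to 0.326. The cholesterol exporter abca1b was the only 1 of 28 apolipoprotein and lipoprotein genes called, with 6.18 and 8.18 CPM in ventral against 22.6 and 19.4 CPM in fed libraries (-1.55 ± 0.25, adjusted p = 0.00389).

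No gene of cholesterol synthesis (28 tested, median 0.33) or of fatty acid synthesis (32 tested, median 0.26) was called by edgeR. At an unadjusted p under 0.05, 6 cholesterol genes were higher and 0 lower, and 6 fatty acid synthesis genes were higher and 4 lower. Over all 17799 genes tested 2245 passed that limit in either direction. DESeq2 called 1 higher in each list. With scores of pancreas, skin and blood markers in the model, added after seeing the data, the medians were -0.24 for cholesterol and -0.05 for fatty acid synthesis. Of abundant members, hmgcs1 had 2350 and 2254 CPM in ventral against 2606 and 2846 CPM in fed libraries, and the desaturase fads2 had 2521 and 2298 CPM in ventral against 1987 and 1758 CPM in fed libraries.

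The 13 protein genes of the mitochondrial genome all had a positive log2 fold change, with a median of 0.48, and in 12 of them the ventral levels lay above the fed levels without overlap, against 20% of all genes tested. None reached 2-fold at an adjusted p under 0.1 in edgeR or DESeq2. All 13 had an unadjusted p under 0.05, and 5 had an adjusted p under 0.1, against 2245 and 445 of the 17799 genes tested. The most abundant, mt-co1, a subunit of cytochrome c oxidase, had 19754 and 16412 CPM in ventral against 12520 and 12102 CPM in fed libraries (log2 fold change 0.55 ± 0.13, adjusted p = 0.0397). Leaving out 1 library gave medians of 0.31 to 0.66, the lowest without ventral replicate 1. These genes are cut from shared transcripts of both strands, and the strand setting of the counting is not known, so they are no separate evidence. The 93 tested genes for oxidative phosphorylation in the nucleus had a median of 0.07 and 0 calls, with 6 higher and 0 lower at an unadjusted p under 0.05 and 0 calls by DESeq2. The ATP synthase subunit atp5f1b, for example, had 2923 and 2788 CPM in ventral against 2943 and 2658 CPM in fed libraries.

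Among 29 genes of iron, heme and hypoxia 2 were higher and 3 lower, with a median of 0.14. Without overlap 13 members were higher and 9 lower, against 20% and 21.1% of all genes tested. Beside slc40a1, hif1al was higher, with 145 and 136 CPM in ventral against 64.9 and 48.5 CPM in fed libraries (log2 fold change 1.31 ± 0.17, adjusted p = 0.000676). Both were called with any 1 library left out. The 3 that were lower are known in mammals to be induced under low oxygen. The erythropoietin gene epoa had 2 counts over the ventral libraries, against 79 over the fed libraries, and ankrd37 had 2 counts over the ventral against 83 over the fed libraries.

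In CPM, epoa was at 0 and 0.102 in ventral against 2.52 and 1.26 in fed libraries (adjusted p = 0.0214), and ankrd37 at 0 and 0.102 in ventral against 1.74 and 2.03 in fed libraries (adjusted p = 0.0891). The ratio of fed over ventral was 37.9 for epoa, with an exact 95% interval of 10.2 to 319 that covers counting error only, and 39.9 for ankrd37, with an interval of 10.7 to 335. Small counts were mostly even, so a read pair may have been counted per mate. With every count halved the lower limits were 6.51 for epoa and 6.86 for ankrd37. The fitted log2 fold change was -5.13 for both. The call of epoa was lost without ventral replicate 1 (-4.13, adjusted p = 0.158) and without fed replicate 1 (-4.55, adjusted p = 0.118). That of ankrd37 was lost without any 1 of the 4 libraries (adjusted p 0.167 to 0.366), and its value was -4.14 without ventral replicate 1. Without ventral replicate 2 neither gene has a count left in the ventral group. Over the 12 libraries of the other 6 groups epoa ran from 0 to 0.774 CPM and ankrd37 from 0 to 0.735 CPM. The ventral levels of both genes lay within these ranges, and both fed libraries lay above them. The prolyl hydroxylase egln3, the other member called and named after its values were seen, had 17.3 and 20.6 CPM in ventral against 47.1 and 34.7 CPM in fed libraries (log2 fold change -1.11 ± 0.22). Its call was lost without ventral replicate 1 or fed replicate 1, and without 1 library its value ran from -1.32 to -0.87. With the marker scores it was -0.54 (adjusted p = 0.602). The iron hormone hepcidin, hamp, also read after the fact, was at 36.9 and 27.002 CPM in ventral against 58.8 and 67.6 CPM in fed libraries. At -0.98 ± 0.17 (adjusted p = 0.0038) it was short of 2-fold.

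Immediate early genes, which cells switch on soon after a stimulus without new protein synthesis, held calls in both directions. Of 40 tested, 4 were lower and 2 higher in the ventral libraries, and the median was -0.58. The zinc finger factor egr2a had 5.55 and 4.70 CPM in ventral against 31.1 and 14.6 CPM in fed libraries (log2 fold change -2.14 ± 0.39, adjusted p = 0.0252). For ier2a the levels were 9.76 and 10.7 CPM in ventral against 50.5 and 25.5 CPM in fed libraries (-1.89 ± 0.42, adjusted p = 0.08). Fed replicate 1 was above fed replicate 2 in both.

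The nuclear receptor nr4a3 went the other way, at 9.90 and 15.1 CPM in ventral against 1.21 and 0.0407 CPM in fed libraries (log2 fold change 4.39 ± 1.03, adjusted p = 0.0777). So did klf6b, at 1.79 and 1.33 CPM in ventral against 0.526 and 0.488 CPM in fed libraries (1.62 ± 0.44, adjusted p = 0.0807). None of these 4 calls held in all fits without 1 library. The call of egr2a was lost without either ventral replicate (-2.27 and -2.03, adjusted p = 0.146 and 0.185), and its value was -1.50 without fed replicate 1. The call of klf6b was lost without any 1 library (1.38 to 1.81). That of ier2a held only without fed replicate 2 (-2.30), with values of -1.32 to -1.96 in the other 3 fits, and that of nr4a3 only without fed replicate 1 (8.09), with values of 3.36 to 4.66 in the other 3. The median of the list was -0.16 without fed replicate 1 and -0.87 without fed replicate 2. The summed level of the list was 1137 and 1069 CPM in ventral against 2325 and 1346 CPM in fed libraries, highest in fed replicate 1.

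Of 26 genes of the p53 response and growth arrest 2 were higher and 0 lower. The cell death gene pmaip1 had 4.66 and 7.77 CPM in ventral against 2.52 and 0.895 CPM in fed libraries (log2 fold change 1.89 ± 0.42, adjusted p = 0.0338), and gadd45ga had 78.5 and 83.0 CPM in ventral against 38.9 and 27.9 CPM in fed libraries (1.28 ± 0.28, adjusted p = 0.06). Without fed replicate 2 they came to 1.29 (adjusted p = 0.303) and 1.05 (adjusted p = 0.356), and without ventral replicate 2 to 1.48 (adjusted p = 0.21) and 1.23 (adjusted p = 0.206). Without ventral replicate 1 gadd45ga was at 1.31 (adjusted p = 0.17), and without fed replicate 1 pmaip1 was at 2.79. DESeq2 called 3 members higher and 1 lower.

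All 48 tested genes of cell division had a positive log2 fold change, with a median of 0.44, and in 39 of them the ventral levels lay above the fed levels without overlap. The same holds for 20% of all genes tested. Genes of cell division can vary together, so they are no separate evidence. No member was called by edgeR, and 2 had an adjusted p under 0.1 at under 2-fold, against 2.5% of all genes tested at that p alone. At an unadjusted p under 0.05, 10 were higher and 0 lower, against 2245 of all 17799 genes tested in either direction. DESeq2 called 2 higher. The proliferation marker mki67 had 97.2 and 78.4 CPM in ventral against 55.5 and 67.2 CPM in fed libraries (log2 fold change 0.52 ± 0.20, adjusted p = 0.281). The topoisomerase top2a had 93.9 and 78.7 CPM in ventral against 64.6 and 59.4 CPM in fed libraries (0.48 ± 0.32, adjusted p = 0.629). The summed level of the list was 1119 and 983 CPM in ventral against 774 and 728 CPM in fed libraries.

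In fasted livers of the same age that sum was 28.7 and 34.04 CPM, so both fed groups were far above fasting. Leaving out 1 library gave medians of 0.35 to 0.55 for cell division. With scores of pancreas, skin and blood markers in the model, added after seeing the data, the median was -0.05. Genes of DNA replication had a median of 0.16 over 49 members and 0 calls by edgeR or DESeq2, with 4 higher and 1 lower at an unadjusted p under 0.05. The replication clamp pcna had 267 and 261 CPM in ventral against 235 and 221 CPM in fed libraries.

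Of 49 genes of secreted plasma proteins only igf2b was called. The median was 0.13, and 22 members were higher without overlap and 4 lower without overlap. Of 37 complement genes 1 was higher, the median was 0.20, and 22 were higher without overlap while 0 were lower without overlap. Of all genes tested 20% were higher and 21.1% lower without overlap. The called gene c7b, for a component of the membrane attack complex, had 92.5 and 103 CPM in ventral against 21.1 and 10.7 CPM in fed libraries (log2 fold change 2.62 ± 0.45, adjusted p = 0.0317). Its call was lost without ventral replicate 2 (2.55, adjusted p = 0.115) and without fed replicate 2 (2.204, adjusted p = 0.193). In fasted livers of the same age c7b stood at 181 and 220 CPM.

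Of 59 genes of cytochromes P450, conjugation and drug response 2 were lower, and the median was -0.06. The vitamin D 25-hydroxylase cyp2r1 had 8.69 and 6.49 CPM in ventral against 30.7 and 45.1 CPM in fed libraries (log2 fold change -2.32 ± 0.43, adjusted p = 0.0439). Without either ventral replicate or fed replicate 2 it lost its call, at -2.55 to -2.01 and an adjusted p of 0.158 to 0.235. The enzyme of the next step in vitamin D activation, cyp27b1, was in no list and is named after its values were seen. It had 18.7 and 21.1 CPM in ventral against 86.6 and 97.9 CPM in fed libraries (-2.21 ± 0.32, adjusted p = 0.0087), and its call held with any 1 library left out but not with the marker scores (-1.86, adjusted p = 0.238).

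The sulfotransferase sult1st2 had 0.672 and 0.409 CPM in ventral against 1.42 and 8.58 CPM in fed libraries (log2 fold change -3.20 ± 0.78, adjusted p = 0.0643). Without fed replicate 2 it came to -1.38 (adjusted p = 0.602), and its call was also lost without either ventral replicate, at -3.61 and -2.90. The bile transporter gene abcb11a, 1 of 25 bile acid genes and the only one called, had 1.88 and 2.61 CPM in ventral against 5.26 and 4.96 CPM in fed libraries (-1.19 ± 0.32, adjusted p = 0.0844). It lost its call when any 1 library was left out (-1.44 to -0.97, adjusted p 0.166 to 0.406). Among 32 genes of oxidative stress (median -0.02) gpx1b alone was called, and among 36 innate immune genes (median -0.07) socs1a alone. At an unadjusted p under 0.05 in edgeR, 0 oxidative stress genes were higher and 7 lower. For innate immune genes the counts were 1 higher and 6 lower, against 2245 of all 17799 genes tested in either direction. DESeq2 called 1 oxidative stress gene and 2 innate immune genes lower.

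Of 22 WNT targets and genes that mark the pericentral zone in mammals 1 was higher and 1 lower. The glutamine synthetase glula, the pericentral enzyme, had 39.8 and 32.8 CPM in ventral against 21.3 and 14.6 CPM in fed libraries (log2 fold change 1.02 ± 0.16, adjusted p = 0.00158). It was under 2-fold without ventral replicate 1 (0.87) and without fed replicate 2 (0.77), while the WNT target ccnd1 was lower as given above. None of 11 periportal genes was called by edgeR or DESeq2, with 2 higher and 1 lower at an unadjusted p under 0.05. The gluconeogenic pck1, for example, had 3042 and 3194 CPM in ventral against 2310 and 1187 CPM in fed libraries (0.83 ± 0.59, adjusted p = 0.651), with the fed replicates far apart.

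The other pathway lists without a call had medians close to 0. Glycolysis and gluconeogenesis (47 tested) stood at 0.04, amino acid breakdown and the urea cycle (57) at 0.04, chaperones of the endoplasmic reticulum (50) at 0.08, the proteasome (43) at 0.11, cytosolic heat shock chaperones (27) at -0.03 and cytosolic ribosomal proteins (82) at 0.09. Over the 13 pathway lists without a call in edgeR, 0 to 13 members had an unadjusted p under 0.05 and DESeq2 called 0 to 2. The chaperone hspa8 had 3565 and 3397 CPM in ventral against 3438 and 3160 CPM in fed libraries.

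**Figure D3:**
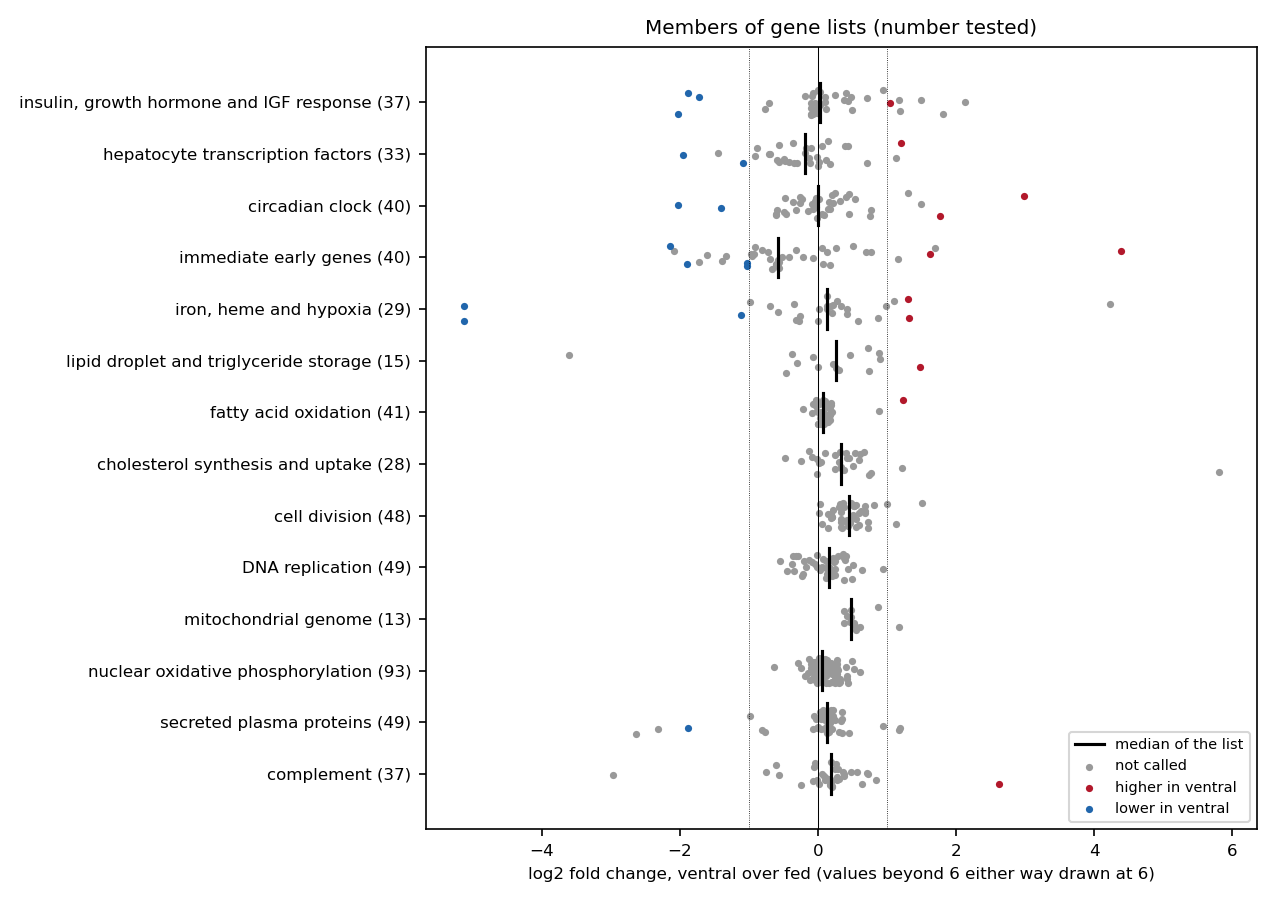
Log2 fold change, ventral over fed, of each tested member of 14 gene lists (horizontal; values beyond 6 are drawn at 6), with the number tested in brackets; black lines are list medians, red and blue points are members called higher and lower. Cell division (median 0.44) and the mitochondrial genome (0.48) lie to the right of 0 without a call, while clock, transcription factor and immediate early genes hold calls in both directions.

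The labelled tissue was checked against its defining genes. Hepatocyte markers summed to 225804 and 221566 CPM in ventral against 227178 and 194499 CPM in fed libraries, none of the 22 was called by edgeR or DESeq2, and the median was 0.10. At an unadjusted p under 0.05, 2 were higher and 1 lower. Transferrin, tfa, had 49297 and 45534 CPM in ventral against 45940 and 40128 CPM in fed libraries. No hepatocyte marker was at 0 in either group.

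Markers of the exocrine pancreas summed to 256 and 805 CPM in ventral against 3550 and 2878 CPM in fed libraries, a ratio of mean sums of 6.06, fed over ventral. Against ventral replicate 1 alone the ratio was 12.6 and against ventral replicate 2 alone 3.99. In 26 of 31 members the ventral levels lay below the fed levels without overlap, against 21.1% of all genes tested. The median was -2.56, and 0.08 with the marker scores, which include pancreas genes, in the model. Trypsin, prss1, had 28.7 and 92.3 CPM in ventral against 434 and 386 CPM in fed libraries (log2 fold change -2.76 ± 1.03, adjusted p = 0.306). Of the list only the elastase cela1.2 was called, at 0.269 and 0.307 CPM in ventral against 2.63 and 1.75 CPM in fed libraries (-2.90 ± 0.65, adjusted p = 0.0317). That call was lost without ventral replicate 1 (-2.81), ventral replicate 2 (-2.99) or fed replicate 1 (-2.58), at adjusted p of 0.121 to 0.196.

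The syncollin gene sycn.3, outside this list and named after its values were seen, was called lower too. Its log2 fold change ran from -3.96 to -2.37 with 1 library left out, and with the marker scores it was -0.013. DESeq2 called 14 of the listed exocrine genes lower. Libraries at other ages and treatments varied widely in these genes, and fasted livers of the same age had 8358 and 16025 CPM. Trypsins and elastases are near-identical copies, so their counts may be divided unevenly among them. With scores of pancreas, skin and blood markers in the model, chosen after seeing the data, 202 genes were called, 125 higher and 77 lower, of which 92 were among the 207. Of the 54 called genes that the naming rule gives, 18 lost their call in that model, 1 of them among the 24 with the smallest p (amotl2a), and none changed direction.

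Transcripts of islet cells summed to 1.88 and 3.58 CPM in ventral against 11.6 and 58.04 CPM in fed libraries. Of 26 islet features 11 had 0 counts in both ventral libraries and 3 in both fed libraries. The median of 13 tested members was -3.85, or -2.82 with the 3 genes at 0 counts in ventral set to the bound that 3 counts over the group allow, and -0.47 without fed replicate 2. Insulin, ins, had 0.0896 and 0.716 CPM in ventral against 2.103 and 23.6 CPM in fed libraries (log2 fold change -5.04 ± 1.78, adjusted p = 0.293). The glucagon gene gcga was called, with 2 counts over the ventral against 138 over the fed libraries, a ratio of fed over ventral of 66.3 (exact 95% interval 18.003 to 553, adjusted p = 0.0599). With every count halved the lower limit was 11.7. Its fitted log2 fold change was -5.79, and its call was lost without fed replicate 2 (-4.23, adjusted p = 0.24), ventral replicate 1 (-4.78, adjusted p = 0.309) or ventral replicate 2 (adjusted p = 0.192). Fed replicate 2 held 119 of the 138 fed counts, and without ventral replicate 2 no count of gcga is left in the ventral group.

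Markers of skin and skeletal muscle had positive medians that turned with 1 library, 1.16 for skin (1.01 with genes at 0 counts in a group set to their bound) and 2.36 for muscle. Skin markers summed to 376 and 1457 CPM in ventral against 474 and 572 CPM in fed libraries, and muscle markers to 105 and 411 CPM in ventral against 136 and 134 CPM in fed libraries. In both lists ventral replicate 1 was the lowest and ventral replicate 2 the highest of the 4. Without ventral replicate 2 the medians were -0.74 and -1.85. No member was called by edgeR, while DESeq2 called 3 skin genes higher and 5 muscle genes higher and 1 lower. At an unadjusted p under 0.05 edgeR had 4 skin genes higher and 4 lower, and 6 muscle genes higher and 2 lower. The keratin krt4 had 45.2 and 270 CPM in ventral against 88.6 and 117 CPM in fed libraries.

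Collagen followed the same library. The abundant fibroblast collagen col1a1b had 16.6 and 219 CPM in ventral against 37.2 and 38.3 CPM in fed libraries (log2 fold change 1.64 ± 0.86, adjusted p = 0.503), and without ventral replicate 2 its direction turned to -1.18 (adjusted p = 0.00879). Of 27 stellate and fibroblast markers only desmb was called, at 0.269 and 0.307 CPM in ventral against 1.26 and 1.46 CPM in fed libraries (-2.23 ± 0.56, adjusted p = 0.06). It lost its call without any 1 of the libraries (adjusted p 0.111 to 0.263). The fibronectin fn1b, the most abundant of the list, was level at 7033 and 7532 CPM in ventral against 6859 and 7402 CPM in fed libraries. The whole list summed to 7246 and 8475 CPM in ventral against 7167 and 7711 CPM in fed libraries. Most of that sum was fn1b, so it says little about the collagens.

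Biliary markers had a median of -0.27 over 20 members. The only call was the bile transporter gene abcb11a, which also stands in the bile acid list. It is therefore not read as a mark of biliary cells. The keratin krt18a.1 had 520 and 530 CPM in ventral against 780 and 611 CPM in fed libraries (log2 fold change -0.41 ± 0.12, adjusted p = 0.122), and krt8 had 899 and 864 CPM in ventral against 1165 and 1026 CPM in fed libraries (-0.31 ± 0.11, adjusted p = 0.194). In 10 members the ventral levels lay below the fed levels without overlap, and in 1 above, against 21.1% and 20% of all genes tested. Endothelial markers had a median of 0.19 over 29 members, and etv2, an early vascular transcription factor, was the only call. It had 8.42 and 7.36 CPM in ventral against 4.10 and 3.25 CPM in fed libraries (1.11 ± 0.18, adjusted p = 0.0033) and came to 0.94 without fed replicate 2. The abundant endothelial genes were not called, kdrl with 87.8 and 99.9 CPM in ventral against 81.4 and 74.1 CPM in fed libraries.

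Of the other lists, intestine markers (34 tested, median -0.13) summed to 4138 and 3588 CPM in ventral against 3924 and 4335 CPM in fed libraries. Without overlap 5 members were higher and 10 lower, against 20% and 21.1% of all genes tested. The abundant rbp2b had 678 and 531 CPM in ventral against 500 and 482 CPM in fed libraries. For apoa4b.1 the levels were 1927 and 1726 CPM in ventral against 2015 and 1854 CPM in fed libraries. DESeq2 called 0 members higher and 7 lower, and edgeR called 2 lower. The claudin cldn15a was at 0 and 0.409 CPM in ventral against 1.52 and 1.91 CPM in fed libraries (log2 fold change -3.12 ± 0.81, adjusted p = 0.0882). The chitinase chia.3 had 0 counts in both ventral libraries and 0.421 and 0.936 CPM in the fed libraries (adjusted p = 0.0614, edgeR). With the ventral libraries set to a floor of 3 counts it was 9.93-fold lower, or 5.12-fold with every count halved. Counting error of the fed libraries is not in these folds. Both lost their calls without ventral replicate 1 (cldn15a at -2.06 with an adjusted p of 0.254, and chia.3 with an adjusted p of 0.24) and without fed replicate 2 (cldn15a at -2.95 with an adjusted p of 0.362, and chia.3 with 0.271). The call of cldn15a was also lost without fed replicate 1 (-3.27, adjusted p = 0.174) and that of chia.3 without ventral replicate 2 (0.218).

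Among kidney and interrenal markers (12 tested, median -0.29) the steroid enzyme cyp17a1 was higher (adjusted p = 0.0747, edgeR). It had 0.448 and 0.614 CPM in ventral and 0 counts in both fed libraries. With the fed libraries set to a floor of 3 counts it was 7.63-fold higher, or 3.82-fold with every count halved. It lost its call without any 1 of the libraries (adjusted p 0.142 to 0.366). Swim bladder, mesothelium and cartilage markers (20 tested, median 0.05) summed to 37.9 and 113 CPM in ventral against 48.4 and 56.4 CPM in fed libraries. The most abundant, col11a1a and col2a1b, were highest in ventral replicate 2. They had 0.537 and 35.1 CPM and 2.02 and 31.2 CPM in ventral, against 1.84 and 3.66 CPM and 5.84 and 5.45 CPM in fed libraries. Of this list the hedgehog ligand ihha was called lower, at 3.18 and 3.58 CPM in ventral against 7.10 and 8.22 CPM in fed libraries (log2 fold change -1.18 ± 0.23, adjusted p = 0.0135). Without ventral replicate 1 it was at -1.10 (adjusted p = 0.12) and without fed replicate 2 at -1.07 (adjusted p = 0.131). The only call among 33 macrophage and leukocyte markers and among 9 genes of the yolk syncytial layer and vitellogenin was slc40a1, which also stands in the iron list. The medians were -0.25 and 0.14. Of the macrophage list 4 members were higher and 7 lower without overlap, against 20% and 21.1% of all genes tested. That list summed to 177 and 183 CPM in ventral against 142 and 149 CPM in fed libraries. Since slc40a1 made up 104 and 95.02 CPM of the ventral sums, they say little about the other members.

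Red blood cell markers (24 tested, median 0.21) summed to 1294 and 825 CPM in ventral against 770 and 869 CPM in fed libraries. Heart muscle markers (23 tested, median 0.00, or -0.36 with genes at 0 counts in a group set to their bound) and neural markers (20 tested, median 0.16) likewise held no call in edgeR. At an unadjusted p under 0.05 blood genes gave 0, heart genes 1 higher and 2 lower, and neural genes 0 higher and 3 lower, and DESeq2 called 1 heart gene lower and none of the others.

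**Figure D4:**
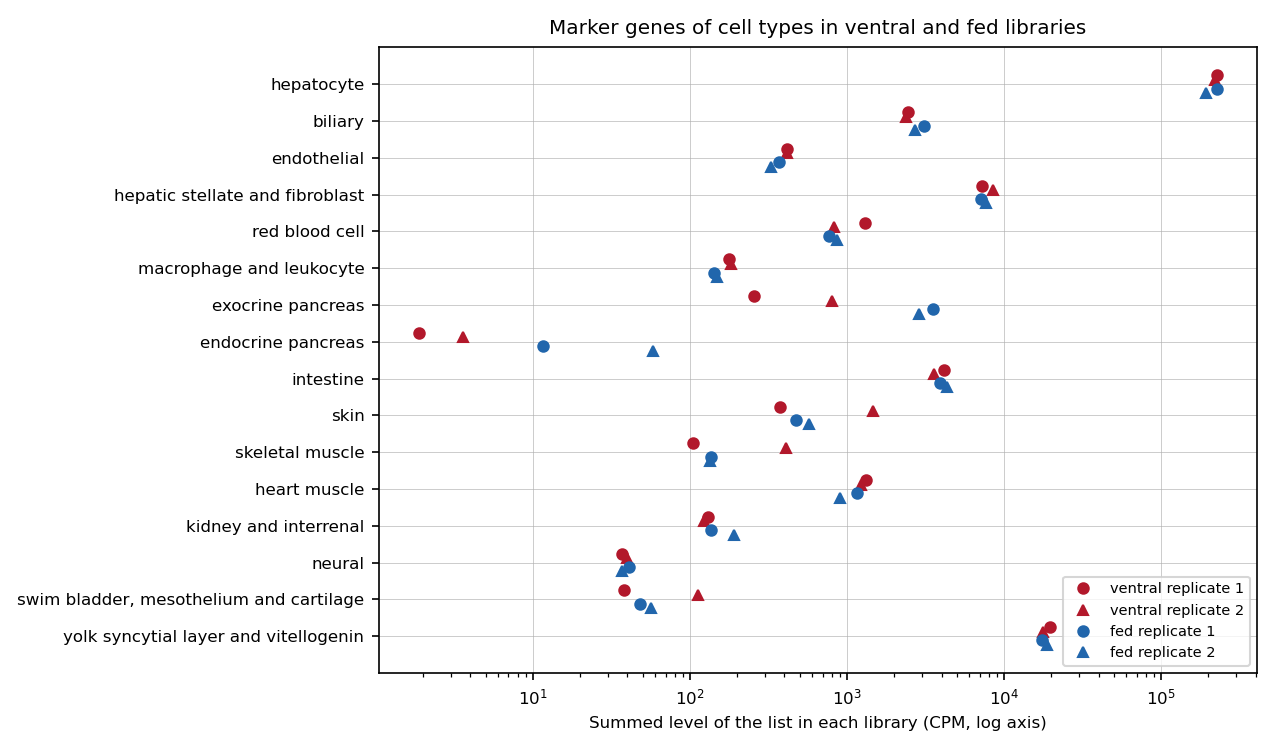
Summed level (CPM, log axis) of 16 lists of marker genes in each of the 4 libraries; red symbols are ventral and blue symbols fed libraries, circles replicate 1 and triangles replicate 2. Hepatocyte markers coincide, exocrine pancreas markers are lower in both ventral libraries (256 and 805 CPM against 3550 and 2878 CPM in fed), and skin and muscle markers are highest in ventral replicate 2.

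The 24 genes with the smallest p were then read in the other 6 groups, as a description. The fed libraries are the reference for the comparison above, so a level in fasted livers that lies to the same side of fed is no separate evidence. For 5 of the 12 genes that were higher both ventral libraries lay above all 14 other libraries. They were raver2, cpt1b, slc40a1, nfil3-5 and pptc7a. For nfil3-5 the 12 libraries of the other 6 groups ran from 0.165 to 8.51 CPM, below the 20.4 and 18.4 CPM in ventral. For cpt1b they ran from 3.86 to 53.7 CPM and for slc40a1 from 6.68 to 36.1 CPM.

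Some other genes that were higher in ventral than in fed libraries stood high in fasted livers too. Those given here were picked after their values were seen, and klf15 and pnpla2 are not among the 24. In ventral, fed and 7 dpf fasted libraries in turn, plekhm1 had 36.8 and 39.6, 15.3 and 13.3, and 71.9 and 79.5 CPM. For klf15 the values were 193 and 192 in ventral, 97.8 and 69.9 in fed, and 241 and 231 CPM in fasted libraries. The lipase pnpla2 had 119 and 134 in ventral, 50.4 and 40.4 in fed, and 127 and 131 CPM in fasted libraries. In contrast cpt1b was low in fasted libraries, at 5.89 and 5.85 CPM, and slc40a1 as well, at 8.68 and 10.4 CPM.

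For 10 of the 12 genes that were lower both ventral libraries lay below all 14 other libraries, the exceptions being cebpa and tbx2b. Here too the share of all genes tested was not counted, and the choice of genes by p bears on the count. The other 6 groups had 81.8 to 292 CPM of igf2b, against 29.1 and 30.3 CPM in ventral, and 40.6 to 130 CPM of cish, against 5.02 and 5.22 CPM in ventral. For osgn1 they had 7.66 to 21.6 CPM, which lies above the 3.67 and 5.32 CPM in ventral and below the 31.4 and 39.5 CPM in fed libraries. The level of cebpa was 28.5 and 27.2 CPM in fasted livers of the same age, near the 19.6 and 25.2 CPM in ventral and apart from the 85.1 and 88.4 CPM in fed libraries. These fasted livers lay below both fed libraries also for osgn1, tbx2b, bhlhe41, ccnd1 and id2a. They lay above both fed libraries, away from ventral, for cish (77.0 and 68.04 CPM), anxa2b (24.8 and 24.2 CPM), eps8l3b, gpx1b and amotl2a. For igf2b the fasted and fed levels overlapped.

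**Figure D5:**
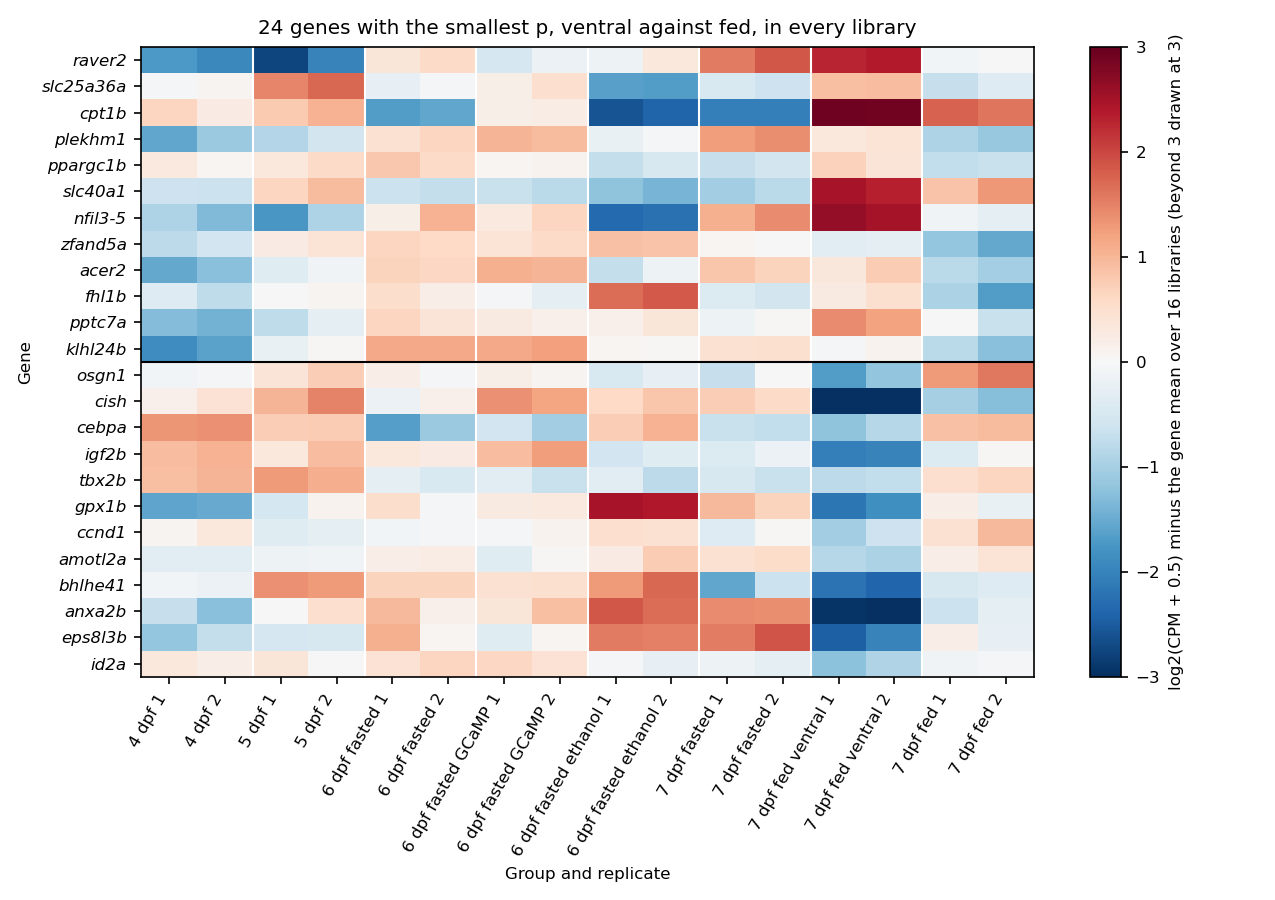
Level of the 24 genes with the smallest p in all 16 libraries, as log2(CPM + 0.5) minus the mean of the gene over the libraries (color; values beyond 3 drawn at 3), with the 12 genes higher in ventral above the black line and the 12 lower below it. The columns of the ventral libraries hold the highest values of nfil3-5, cpt1b and slc40a1 and the lowest values of cish, igf2b, anxa2b and osgn1.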

How the data were processed

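Per the series design text, mRNA was isolated from dissected livers, and per the labels' protocols the library kit keeps strand. Sequencing was in paired mode with 150 bases a read. Per the submitters' processing notes the authors used HISAT2, GRCz11 and featureCounts; neither versions nor the strand setting of the counting could be taken from these notes. Deposited values are raw counts per gene. Of small counts (1 to 50) 72.5% to 76.0% were even in the 4 libraries, against 53.8% to 56.2% of counts over 1000, so a read pair may count more than once. Intervals and floors cover counting error only.

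Counts were tested with edgeR 4.0.16 (R 4.3.3, limma 3.58.1) by its quasi-likelihood F test with robust dispersions and TMM scaling (factors 0.962 to 1.10 in the 4 libraries). The default filter by group was used, and the model had 1 coefficient for each of 8 groups over 16 libraries (8 residual degrees of freedom). The contrast was ventral minus fed, with Benjamini-Hochberg adjustment over 17799 genes. A call needs an adjusted p under 0.1 and a fold of 2, as in the series design text, where the tool was iDEP 0.951. With 2 libraries a group, permuting labels exactly gives no p below 0.333. SEs were derived from the log2 fold change and the F statistic.

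By rule the text names 12 called genes per direction (those having a symbol, by p) and at most 4 called members of a list by size of change. The rule also gives the 2 most abundant members of marker lists and lists without a call, but the text names only some of these. Others are marked as read after the fact. The 45 lists and this rule were chosen from general knowledge with earlier results of these data known. Alternatives were other scalings, DESeq2 1.42.0, other filters and limits, the 4 libraries alone, a replicate block, halved counts, dispersions without robust fitting, each library left out, and marker scores as covariates, which were chosen after seeing the data. The code was tested on simulated data. Symbols are those of the deposited table; 28988 of 32057 Ensembl identifiers were found in the gene name table.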

Additional observations from a re-analysis of the deposited data

How the results depend on the processing

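RLE scaling gave 207 calls, and scaling without marker genes of other cells 207. Library size alone gave 225 and shifted the median of all genes to -0.09. DESeq2 called 380 genes (177 higher, 203 lower), of which 201 were shared, and had 2222 at an unadjusted p under 0.05. No filter on low counts gave 733 (394 higher, 339 lower). The filter at 1 CPM gave 210, the 4 libraries alone 220 with 145 shared, halved counts 205 and dispersions without robust fitting 268. A limit of 0.05 left 124 (53 higher, 71 lower), and no fold limit 445 (232 higher, 213 lower). With marker scores, added after seeing the data, 77 genes were lower, and the median of cholesterol synthesis turned to -0.24 and that of the exocrine pancreas to 0.08. With these scores amotl2a came to -0.91, bhlhe40 to -0.88, foxa1 to -0.90 (adjusted p = 0.106), cyp2r1 to -1.56 (0.31), cela1.2 to -0.94 (0.771), socs1a to -1.33 (0.249) and nr4a3 to 6.002 (0.212). Calls were also lost for abcb11a (-1.18, adjusted p = 0.15), irs1 (1.03, 0.475), klf6b (1.57, 0.425), sult1st2 (-2.997, 0.455), desmb (-2.47, 0.246), gcga (-5.51, 0.222), ier2a (-2.19, 0.406), epoa (-4.77, 0.284) and ankrd37 (-4.64, 0.497), all within 1.5 times of the fold without the scores. For cyp17a1 (0.499) and chia.3 (0.456), which have 0 counts in a group, the lost call came with a fitted fold that moved by over 1.5 times. Calls of c7b (3.58), pmaip1 (2.56), rorcb (3.35), nfil3-5 (3.88), fbxo32 (5.33) and slc3a2b (3.14) held with a fold moved by over 1.5 times. The causes were not tested.

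Leaving out 1 library gave 85 to 224 calls, 30 to 144 higher and 52 to 127 lower. The lone library of a group is then assumed to vary like the other groups. The fold of col1a1b reversed to -1.18 without ventral replicate 2 and was 2.54 without ventral replicate 1. Of the 207 calls, 35 held in these 4 fits and in all 11 others that changed the fit.

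Replicate numbers were not treated as pairs. The deviations of same-numbered ventral and fed libraries correlated at 0.0891, and a replicate block gave 205 calls (91 higher, 114 lower), of which 190 were shared.

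At this depth a gene at 0 counts over a group is limited only to 3 counts, and 16 of the calls have 0 counts in a group.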

Other observations

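Outside the 24 genes, and chosen after their values were seen, a few called transporters and a hormone gene are given here. The heavy chain of amino acid exchangers slc3a2b had 20.2 and 18.3 CPM in ventral against 4.15 and 3.82 CPM in fed libraries (log2 fold change 2.27 ± 0.47, adjusted p = 0.06), while the neutral amino acid carrier slc1a4 had 0.358 and 0.307 CPM in ventral against 2.42 and 2.52 CPM in fed libraries (-2.87 ± 0.50, adjusted p = 0.0054). The sulfate carrier slc26a2 had 143 and 156 CPM in ventral against 60.8 and 60.2 CPM in fed libraries (1.302 ± 0.19, adjusted p = 0.0014). The hormone gene stc2b was higher, with 30.3 and 36.7 CPM in ventral against 11.3 and 8.54 CPM in fed libraries (1.76 ± 0.22). The last 3 genes named kept their calls with any 1 of the 4 libraries left out, while slc3a2b lost its call in each of these 4 fits, at log2 fold changes of 2.199 to 2.34. With marker scores in the model slc3a2b came to 3.14 (adjusted p = 0.0329) and slc1a4 to -2.39 (adjusted p = 0.106).

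In fed replicate 2 a pair of intestine markers, picked after their values were seen, stood far above the other 3 libraries. The whole intestine list, the pair included, summed to 4138 and 3588 CPM in ventral against 3924 and 4335 CPM in fed libraries. Its abundant members rbp2b and apoa4b.1 were not highest in fed replicate 2. These abundant members made up much of the sum, so it cannot show whether less abundant members followed the pair. The chitinase chia.2 had 0.537 and 2.45 CPM in ventral against 5.26 and 300.3 CPM in fed libraries, and the brush border gene vil1 0.0896 and 0.921 CPM in ventral against 2.84 and 57.5 CPM in fed libraries. Fed replicate 1 alone had the acute phase gene saa at 25.8 CPM, against 1.61 and 2.56 CPM in ventral libraries and 0.244 CPM in fed replicate 2. In ventral replicate 2 the epidermal keratin krt5 reached 370 CPM, against 1.25 CPM in ventral replicate 1 and 0.631 and 18.4 CPM in the fed libraries. None of these 4 genes was called by edgeR (adjusted p = 0.206, 0.275, 0.666 and 0.489).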
